A study of Mus musculus with 2 samples.

Results

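The genes described here are the nuclear-encoded genes of the mitochondrial respiratory chain and of ATP synthase, in cultured mouse spermatogonia and in the feeder cells that accompanied them. Members were taken by symbol: names that begin with Nduf, Uqcr, Atp5, Cox4i, Cox5, Cox6, Cox7 or Cox8, or Sdha, Sdhb, Sdhc and Sdhd with their assembly factors, without pseudogenes ending in -ps. This gave 90 of the 26893 named genes. By role they comprised 33 genes of complex I, 4 of complex II, 8 of complex III, 19 of complex IV, 14 of ATP synthase and 12 assembly factors. Ndufa4 and Ndufa4l2 were counted with complex IV, where the NDUFA4 protein is known to sit. Atp5a1, Ndufs8, Ndufv1, Ndufb8, Cox8a and the mitochondrially encoded genes were not analysed here.

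The study addressed CHD4, a chromatin remodelling ATPase, in undifferentiated spermatogonia, the germline population that includes the stem cells of the testis. The cells were a THY1+ fraction of adult C57BL/6 testes, cultured without serum on mitomycin-treated SNL76/7 fibroblasts and fed GDNF and bFGF, growth factors that keep spermatogonia dividing. They were taken off the feeder layer and transfected on plastic with 75 pmol of either a non-targeted control siRNA or an siRNA against Chd4, with 2 µL Lipofectamine, and were collected after 24 h. Cells of 3 biological replicates were pooled into 1 tube per siRNA, so each group was 1 library and no difference reported here has a replicate check.

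Respiratory chain complexes pass electrons from NADH (complex I) and succinate (complex II) through complex III to oxygen at complex IV, and ATP synthase uses the resulting proton gradient to make ATP. Most subunits are encoded in the nucleus, and the catalytic cores of most complexes also hold subunits encoded in mitochondrial DNA. Complex IV has subunits with alternative isoforms made from separate genes. Some of these, such as Cox6b2, Cox7b2 and Cox8c, are known from the testis, and others, such as Cox7a1, Cox6a2 and Cox8b, from heart and skeletal muscle.

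Cells were split by UMIs of Dazl and Ddx4, germ cell genes, against Col1a1 and Fn1, fibroblast genes. A UMI is a molecular tag that counts 1 captured mRNA molecule. This gave 715 germ cells and 76 feeder cells under control siRNA and 745 and 86 under Chd4 siRNA. The germ cells of the libraries held 11487055 and 12112186 UMIs and the feeder cells 3126177 and 3592575. A class level is its summed UMIs per 1000000 UMIs (CPM), and intervals are exact 95% intervals that cover counting error only. Wider marker lists, which include the 4 genes of the split, ran the same way. The 11 measured germ cell markers had a median of 103 and 112 CPM in germ cells and 7.04 and 5.57 CPM in feeder cells. The 14 fibroblast markers had a median of 7.66 and 10.5 CPM in germ cells and 299.6 and 343 CPM in feeder cells. The 5 Sertoli cell markers summed to 238 and 230 CPM in feeder cells, with Wt1 at 0 under control siRNA. Their median there was 4.80 and 2.78 CPM, so the sum did not come evenly from the list. Macrophage, endothelial, Leydig and myoid marker sums stayed at or under 15.2 CPM in each class. Chd4 itself went from 536 to 254 CPM in germ cells, a log2 ratio of -1.08 (interval -1.14 to -1.01). In feeder cells it went from 153 to 51.8 CPM (-1.57, -1.82 to -1.32), so both classes carried the knockdown.

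The first comparison set germ cells against feeder cells within each library. Summed over all 90 genes, both classes gave the respiratory chain close to the same share of their mRNA. The genes summed to 30784 CPM in germ cells and 30246 CPM in feeder cells under control siRNA, and to 29751 and 29375 CPM under Chd4 siRNA, a germ to feeder ratio of 1.02 and 1.01. The complexes differed in direction below that even sum. Complex II was 1.73-fold and 1.82-fold higher in germ cells in the control and Chd4 siRNA libraries (504 against 291 CPM and 525 against 288 CPM). Complex III was lower in germ cells, with 3174 against 4029 CPM and 3008 against 3693 CPM, and ATP synthase too, with 6886 against 7930 CPM and 6676 against 7540 CPM. Complex IV stood at 10341 against 8608 CPM and 10047 against 8818 CPM, complex I at 9347 against 8983 CPM and 8978 against 8688 CPM, and the assembly factors at 533 against 405 CPM and 518 against 348 CPM. How these mRNA shares relate to the number of mitochondria per cell was not tested. Another choice of scaling lowered each germ to feeder log2 ratio by 0.16 (control siRNA) and 0.23 (Chd4 siRNA) with TMM factors, or by 0.22 and 0.28 with DESeq2 size factors. These shifts are larger than the germ excess of complex I and of all 90 genes, and than that of complex IV in the Chd4 siRNA library (0.19), so those directions depend on the scaling.

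Of the 90 genes, 86 had at least 200 UMIs over both classes and libraries, and Cox4i2, Cox6a2, Cox8b and Ndufa4l2 fell under that minimum. Of the 86, 16 (18.6%) were at least 2-fold higher in germ cells in both libraries, where 30.6% of all 9249 genes tested were. Of these 16, 8 had under 200 UMIs in feeder cells and passed the minimum only through germ cells (Cox7b2, Cox6b2, Cox7a1, Cox8c, Ndufaf1, Ndufaf7, Atp5sl and Atp5s), so the count is a description. With 200 UMIs asked of each class, an alternative chosen after seeing the data, 8 of 73 members (15.4% of all 3791 genes) were higher in germ cells. Another 6 (6.98%) were at least 2-fold higher in feeder cells, against 16.8% of all genes. Their median log2 ratio of germ to feeder was 0.23, and that of all genes was 0.39. With the other scalings the median was 0.027 and -0.025, against 0.20 and 0.14 for all genes, and 10 and 9 members passed in the germ direction, beside 26.2% and 25.2% of all genes. In the feeder direction 8 passed with each, beside 19.8% and 20.4%.

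**Figure D1:**
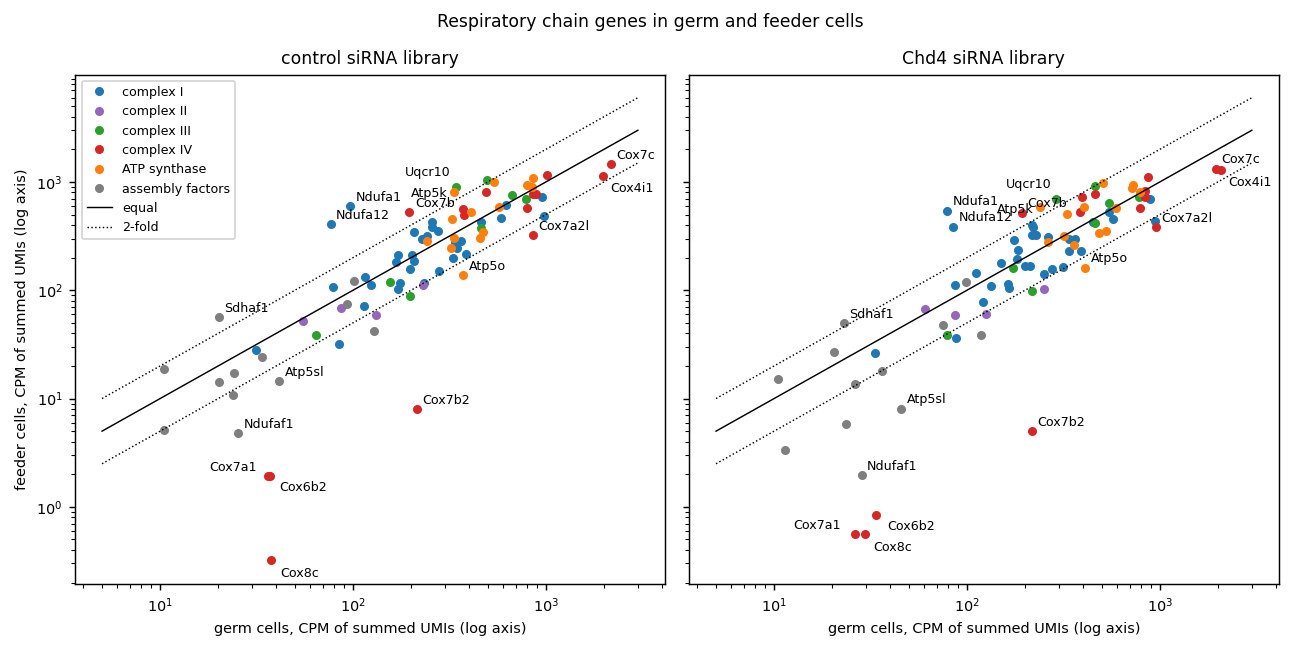
Each point is 1 gene, placed by its CPM in germ cells (x axis, log scale) and in feeder cells (y axis, log scale), with control siRNA on the left and Chd4 siRNA on the right. The solid line marks equal levels and the dotted lines 2-fold differences; genes under 200 UMIs are not drawn. Most genes lie between the dotted lines, Cox7b2, Cox6b2, Cox7a1 and Cox8c lie far below them, and Ndufa1 and Ndufa12 lie furthest above.

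Within complex I, 20 of the 33 genes had a germ to feeder log2 ratio above 0, and few passed 2-fold. Among all genes with a ratio, 5551 were above 0 and 3553 below. Above the all-gene median of 0.39 were 10 of the 33. Ndufb9 and Ndufa7, accessory subunits, had the highest CPM in germ cells. Ndufb9 stood at 976 and 947 CPM in germ cells (control and Chd4 siRNA) and 487 and 436 CPM in feeder cells, and Ndufa7 at 956 and 886 against 732 and 698 CPM. Since UMIs count 3′ ends, levels were not divided by transcript length. Of the 90 genes, 13 share at least 1 stretch of 98 bases near the 3′ end with another annotated gene, so their levels are uncertain. Among these, 20.6% of the stretches of Ndufb9 also occur in Gm49356, which overlaps it on the same strand, and 30.8% of those of Cox7c, 43.7% of those of Atp5h and 68.2% of those of Atp5l occur in other genes. The accessory subunits Ndufa1 and Ndufa12 ran the other way. Ndufa1, on the X chromosome (chrX:37187588-37191163, mm10, minus strand), stood at 97.1 and 78.8 CPM in germ cells and 596 and 543 CPM in feeder cells, 6.14-fold and 6.88-fold higher in feeder cells. Ndufa12 stood at 76.5 and 84.6 CPM in germ cells and 405 and 385 CPM in feeder cells, 5.30-fold and 4.55-fold higher in feeder cells. No other complex I gene passed 2-fold in the feeder direction in both libraries.

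In complex II, Sdhb, the iron-sulfur subunit, stood at 231 and 252 CPM in germ cells and 113 and 102 CPM in feeder cells. Sdhc, a membrane anchor, stood at 131 and 126 CPM in germ cells and 58.9 and 60.1 CPM in feeder cells. Both passed 2-fold in germ cells. The other two did not: Sdha, the flavoprotein that oxidises succinate, stood at 86.5 and 86.3 against 68.5 and 59.6 CPM, and the anchor Sdhd at 55.0 and 60.3 against 51.5 and 66.8 CPM.

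In complex III the core subunit Uqcrc1 was higher in germ cells, with 198 and 216 CPM against 88.9 and 98.5 CPM. The small subunit Uqcr10 was higher in feeder cells, with 902 and 696 CPM against 342 and 291 CPM in germ cells. Uqcrq, another small subunit, stood just at the threshold, 2.12-fold and 1.98-fold higher in feeder cells (1050 and 915 against 495 and 462 CPM). Uqcrh, the hinge subunit, and Uqcr11, a small membrane subunit, had the highest CPM in germ cells and differed less: Uqcrh at 794 and 779 against 700.2 and 731 CPM, and Uqcr11 at 666 and 548 against 753 and 640 CPM.

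In ATP synthase, Atp5o, the subunit that links the catalytic head to the stator, stood at 373 and 410 CPM in germ cells and 137 and 161 CPM in feeder cells. Close to 38.0% of its 98-base stretches within the last 500 bases also occur in 2 other annotated entries, a second one named Atp5o and Gm5436, so its level is uncertain. Atp5k, subunit e of the membrane part, ran the other way, with 334 and 241 CPM in germ cells and 816 and 583 CPM in feeder cells. Atp5j2, subunit f, stood at 540 and 509 against 997 and 970 CPM, under 2-fold. The 3 genes for subunit c, which forms the rotating ring, stood close to level: Atp5g1 at 851 and 787 against 898 and 803 CPM, Atp5g2 at 570.2 and 596 against 588 and 571 CPM, and Atp5g3 at 335 and 320 against 303 and 317 CPM. The Atp5g2 count is uncertain, since 99.0% of its stretches also occur in 2 other genes.

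Among the assembly factors, 5 of 12 passed 2-fold in germ cells, where 30.6% of all genes did, and 4 of the 5 had under 200 feeder UMIs. Ndufaf2, a complex I assembly factor, stood at 129 and 119 CPM in germ cells and 41.9 and 38.4 CPM in feeder cells. Ndufaf1, which acts in building the membrane arm of complex I, stood at 25.3 and 28.4 against 4.80 and 1.95 CPM, from 15 and 7 feeder UMIs. Atp5sl, another gene with a role in complex I assembly, stood at 41.4 and 45.6 against 14.4 and 8.07 CPM. Ndufaf7, a methyltransferase that modifies a complex I subunit, stood at 23.9 and 23.5 against 10.9 and 5.85 CPM, and Atp5s at 10.5 and 11.4 against 5.12 and 3.34 CPM. Sdhaf1, which helps to place iron-sulfur clusters in SDHB, was higher in feeder cells, with 56.6 and 49.8 CPM against 20.2 and 23.0 CPM in germ cells. Ndufaf4 differed little, with 101 and 98.5 against 122 and 119 CPM.

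The second question was which isoforms of complex IV subunits the classes used. The germ cells carried a second set of complex IV mRNAs beside the general one, and few UMIs of these genes were seen in feeder cells. For the Cox7b subunit, germ cells held as much of the testis isoform as of the general one. Cox7b2 (chr5:71442824-71548205, mm10, minus strand) stood at 215 CPM in control and 217 CPM in Chd4 siRNA germ cells and at 8.0 and 5.01 CPM in feeder cells. Cox7b (chrX:106015700-106022450, plus strand) stood at 196 and 192 CPM in germ cells and 523 and 519 CPM in feeder cells. Cox7b2 therefore made up 52.3% (interval 50.9 to 53.8) and 53.0% (51.6 to 54.4) of the pair's UMIs in germ cells, against 1.51% (0.976 to 2.21) and 0.956% (0.568 to 1.51) in feeder cells. The pair together stood at 412 and 409 CPM in germ cells and 531 and 524 CPM in feeder cells.

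The Cox7b and Cox7b2 mRNAs share little enough sequence to be told apart. Their coding sequences were 64.8% identical in the GENCODE M21 transcripts, and no 98-base stretch occurs in both. The best matching 30 bases of each pair of isoforms are shown 5′ to 3′, with capitals at the bases that differ, because even in these stretches 4 to 7 bases separate the isoforms:
Cox7b: tggaacAtgtcCcctGttggcagagtCacc
Cox7b2: tggaacCtgtcTcctAttggcagagtTacc
Cox6b1: ccctttgaCAGCcgcttcccCaaccagaac
Cox6b2: ccctttgaTCCGcgcttcccTaaccagaac
Cox7a2: cagagaaAcaAaagctGttTcaggAGgaTa
Cox7a1: cagagaaGcaGaagctCttCcaggCCgaCa

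Counted from the first base of the start codon, the first pair covers coding bases 190 to 219 of Cox7b and 196 to 225 of Cox7b2, the second 46 to 75 of Cox6b1 and 52 to 81 of Cox6b2, and the third 86 to 115 of Cox7a2 and 107 to 136 of Cox7a1. Coding identity was 60.8% for Cox6b1 and Cox6b2 and 60.9% for Cox7a1 and Cox7a2, again with 0 shared stretches of 98 bases.

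Of the other 3 isoforms, Cox6b2 and Cox7a1 were a minor part of their subunits in germ cells. Cox6b2 (chr7:4751792-4753094, minus strand), the testis form of a subunit that faces the intermembrane space, stood at 36.3 and 33.9 CPM in germ cells and at 1.92 and 0.835 CPM in feeder cells. It made up 3.91% (3.55 to 4.30) of Cox6b UMIs in the germ cells of both libraries. Cox8c (chr12:102899316-102900526, plus strand) stood at 37.6 and 29.5 CPM in germ cells, from 432 and 357 UMIs, and had 1 and 2 UMIs in feeder cells. The general form, Cox8a, was not analysed here, so no share was computed.

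Cox7a1 (chr7:30184144-30186078, plus strand), the form known from muscle, stood at 37.3 and 26.2 CPM in germ cells and at 1.92 and 0.557 CPM in feeder cells. It gave 2.70% (2.45 to 2.96) and 1.82% (1.63 to 2.03) of the Cox7a group in germ cells and 0.170% and 0.0479% in feeder cells. Muscle markers summed to 5.05 and 4.38 CPM in germ cells, with Myod1 and Actc1 at 0. The larger difference within that group lay between the general forms. Cox7a2l, known for its place in assemblies of complexes III and IV, stood at 856 and 952 CPM in germ cells and 321 and 381 CPM in feeder cells, while Cox7a2 stood at 492 and 459 against 804 and 781 CPM. Cox7a2l thus held 61.8% and 66.3% of the group in germ cells, and Cox7a2 held 71.4% and 67.2% of it in feeder cells.

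The remaining muscle and low-oxygen forms had few UMIs in either class. Cox6a2 had 22 and 17 UMIs in germ cells, 0.223% and 0.168% of Cox6a, and Cox4i2 had 11 in each, 0.0482% and 0.0436% of Cox4i. Ndufa4l2 had 12 and 16 UMIs in germ cells and 0 in feeder cells. Cox8b had none in germ cells: 0 of 660 and 0 of 691 cells thinned to 9000 UMIs, which at a floor of 3 counts allows up to 0.455% and 0.434% of cells with a UMI. It had 2 UMIs in 1 feeder cell under Chd4 siRNA. The general forms Cox4i1 (1987 and 2084 CPM in germ cells, 1132 and 1293 in feeder cells), Cox6a1 (858 and 836, 781 and 834) and Cox6b1 (891 and 833, 772 and 729) carried these subunits in both classes. Cox7c had the highest CPM of the 90 genes in control germ cells, with 2169 and 1952 against 1463 and 1328 CPM. Cox6c stood at 1013 and 866 against 1162 and 1116 CPM, and Ndufa4 at 377 and 385 against 499 and 532 CPM.

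**Figure D2:**
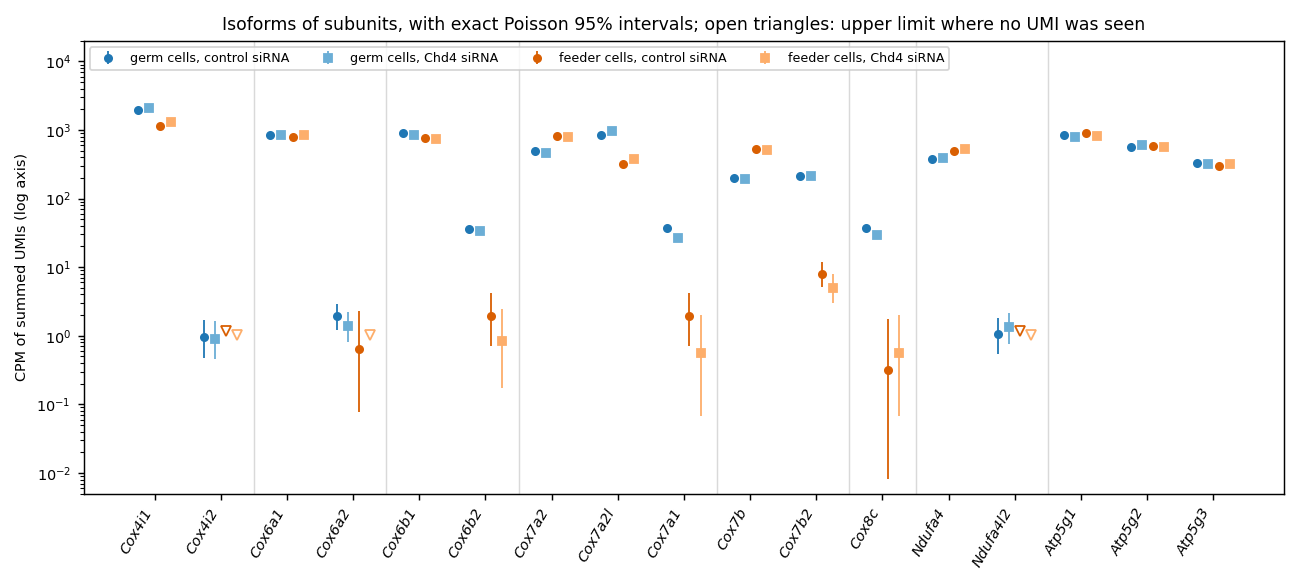
CPM (y axis, log scale) of each isoform in the 4 sums of cells: germ cells in blue and feeder cells in orange, control siRNA as circles and Chd4 siRNA as squares, with exact Poisson 95% intervals. Vertical lines part the subunits, and open triangles give the upper limit of genes with 0 UMIs. Cox6b2, Cox7a1, Cox7b2 and Cox8c separate the classes by more than a factor of 10, whereas Cox4i1, Cox6a1 and Cox6b1 are high in each sum.

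The low feeder counts of these genes were set beside those of germ cell markers. The feeder level was 3.71% (2.40 to 5.49) and 2.31% (1.37 to 3.66) of the germ level for Cox7b2. For Cox6b2 it was 5.29% (1.93 to 11.6) and 2.46% (0.505 to 7.24), for Cox7a1 5.14% (1.88 to 11.3) and 2.13% (0.256 to 7.75), and for Cox8c 0.851% (0.0214 to 4.76) and 1.89% (0.228 to 6.87). Over the 9 measured germ cell markers that did not serve in the split, the feeder level ran from 1.88% to 17.2% of the germ level under control siRNA, with a median of 4.47%, and from 1.61% to 14.2% under Chd4 siRNA, with a median of 3.27%. Etv5 was the highest of them in both libraries, followed by Sall4 (5.83%) under control siRNA and Tex101 (4.80%) under Chd4 siRNA. Mael, a germ cell gene of transposon silencing, gave 3.54% (2.63 to 4.68) and 3.61% (2.78 to 4.60), and Zbtb16, a marker of undifferentiated spermatogonia, 1.88% (0.689 to 4.11) and 1.85% (0.742 to 3.82). Cox7b2, Cox6b2 and Cox7a1 lay within the range of these markers, and Cox8c lay below it under control siRNA. Such feeder shares are not read as expression. Given 25 and 18 feeder UMIs, the germ to feeder log2 ratio of Cox7b2 was 4.75 (4.19 to 5.38) and 5.43 (4.77 to 6.19). With at most 6 feeder UMIs, the ratios of the other 3 carry wide intervals: 4.24 (3.11 to 5.70) and 5.34 (3.79 to 7.63) for Cox6b2, 4.28 (3.15 to 5.74) and 5.55 (3.69 to 8.61) for Cox7a1, and 6.88 (4.39 to 12.2) and 5.73 (3.86 to 8.78) for Cox8c.

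Cox7b2 was spread over most germ cells. After each cell was thinned to 9000 UMIs, which left 660 and 691 germ cells and 74 and 84 feeder cells, it had a UMI in 83.0% (79.9 to 85.8) and 84.9% (82.1 to 87.5) of germ cells. The shares in feeder cells were 4.05% (0.844 to 11.4) and 5.95% (1.96 to 13.3). Without thinning, at a median depth of 15327 and 15643 UMIs for germ cells and 39300 and 42147 for feeder cells, the shares were 91.9% and 93.2% against 25% and 16.3%. Cox7b had a UMI in 77.4% and 76.7% of thinned germ cells. Both genes had one in 65.5% and 65.1%, where the product of their shares is 64.3% and 65.2%, so their UMIs were not split into separate germ cells. Cox6b2 was seen in 23.2% and 21.1% of thinned germ cells, Cox8c in 25.3% and 22.4%, and Cox7a1 in 25.2% (21.9 to 28.6) and 18.1% (15.3 to 21.2).

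The partners of the chain had testis forms in the germ cells as well. Cyct, the testis cytochrome c, stood at 103 and 101 CPM in germ cells and 4.48 and 2.51 CPM in feeder cells, beside 440.4 and 418 against 389 and 408 CPM for the general Cycs. Slc25a31, the ATP/ADP carrier of the testis, stood at 185 and 204 CPM in germ cells and 5.76 and 3.90 CPM in feeder cells. The general carriers were lower in germ cells: Slc25a4 at 162 and 168 against 592 and 701 CPM, and Slc25a5 at 217 and 226 against 737 and 822 CPM. Cyct had a UMI in 52.0% and 51.1% of thinned germ cells and Slc25a31 in 77.9% and 79.2%. Among markers of later germ cells, Acrv1, Prm1 and Spag6 were at 0 in germ cells. The other 3 of the list of 6, Tnp1, Sycp3 and Piwil1, had UMIs in germ cells, and the list summed to 234 and 237 CPM.

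The third comparison set Chd4 siRNA against control siRNA within germ cells. The chain as a whole hardly differed: its summed level had a log2 ratio of -0.05 (-0.06 to -0.04), and the sums of the complexes ran from -0.08 for complex III to 0.06 for complex II. Of the 86 genes with at least 200 germ cell UMIs, 0 passed a log2 ratio of 0.32, that is at least 25% higher under Chd4 siRNA, where 4.58% of all 8223 genes tested did. That share depends on depth: at a minimum of 1000 UMIs 0 of 74 members were higher, beside 1.43% of all 3499 genes. Lower by that fold were 4 of the 86 (4.65%), where 3.92% of all 8223 genes were, which is near the background. The median log2 ratio was -0.01 for the members and 0.05 for all genes. Members numbered 38 above 0 and 48 below, where 5251 of the 8223 genes were above and 2972 below. Above the all-gene median were 29 of the 86 members. Scaling by TMM moved the all-gene median to 0.00 and the members' to -0.06, and 7 members then passed in the lower direction beside 5.22% of all genes. With classes taken from broad marker lists 9 of 82 members were lower, beside 4.54% of all genes, so the count did not stay near the background there.

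The 4 lower genes were small subunits. Ndufa3 (chr7:3617373-3620327, plus strand), an accessory subunit of the membrane arm of complex I, went from 258 to 175 CPM, a log2 ratio of -0.56 (-0.64 to -0.47). Cox7a1 went from 37.3 to 26.2 CPM (-0.51, -0.73 to -0.30). Atp5k went from 334 to 241 CPM (-0.47, -0.54 to -0.40), and Cox8c from 37.6 to 29.5 CPM (-0.35, -0.56 to -0.15). Just short of the threshold were Ndufa1 (-0.30), Sdhaf4 (-0.30), Uqcr11 (-0.28) and Atp5e (-0.26), the last being the epsilon subunit of ATP synthase, at 858 and 714 CPM. Of the germ isoforms, Cox7b2 (0.01, -0.07 to 0.09) and Cox6b2 (-0.10, -0.30 to 0.10) had intervals that include 0, so the 4 isoforms did not move as a set.

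The highest ratio belonged to Uqcrc2, a core subunit of complex III, which stood at 64.5 and 79.0 CPM (0.29, 0.15 to 0.43). After it came Sdhaf1 at 0.18 (-0.07 to 0.44), Atp5c1, the rotor subunit gamma, at 0.17 (0.10 to 0.23), and Ndufaf1 at 0.16 (-0.06 to 0.39). Uqcrfs1, the Rieske iron-sulfur protein of complex III, stood at 155 and 173 CPM (0.16, 0.07 to 0.25). Atp5b, the catalytic beta subunit, stood at 473 and 528 CPM (0.16, 0.11 to 0.21), Cox7a2l at 0.15 (0.12 to 0.19) and Ndufa12 at 0.15 (0.01 to 0.28). These intervals give counting error, not the spread between cultures.

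**Figure D3:**
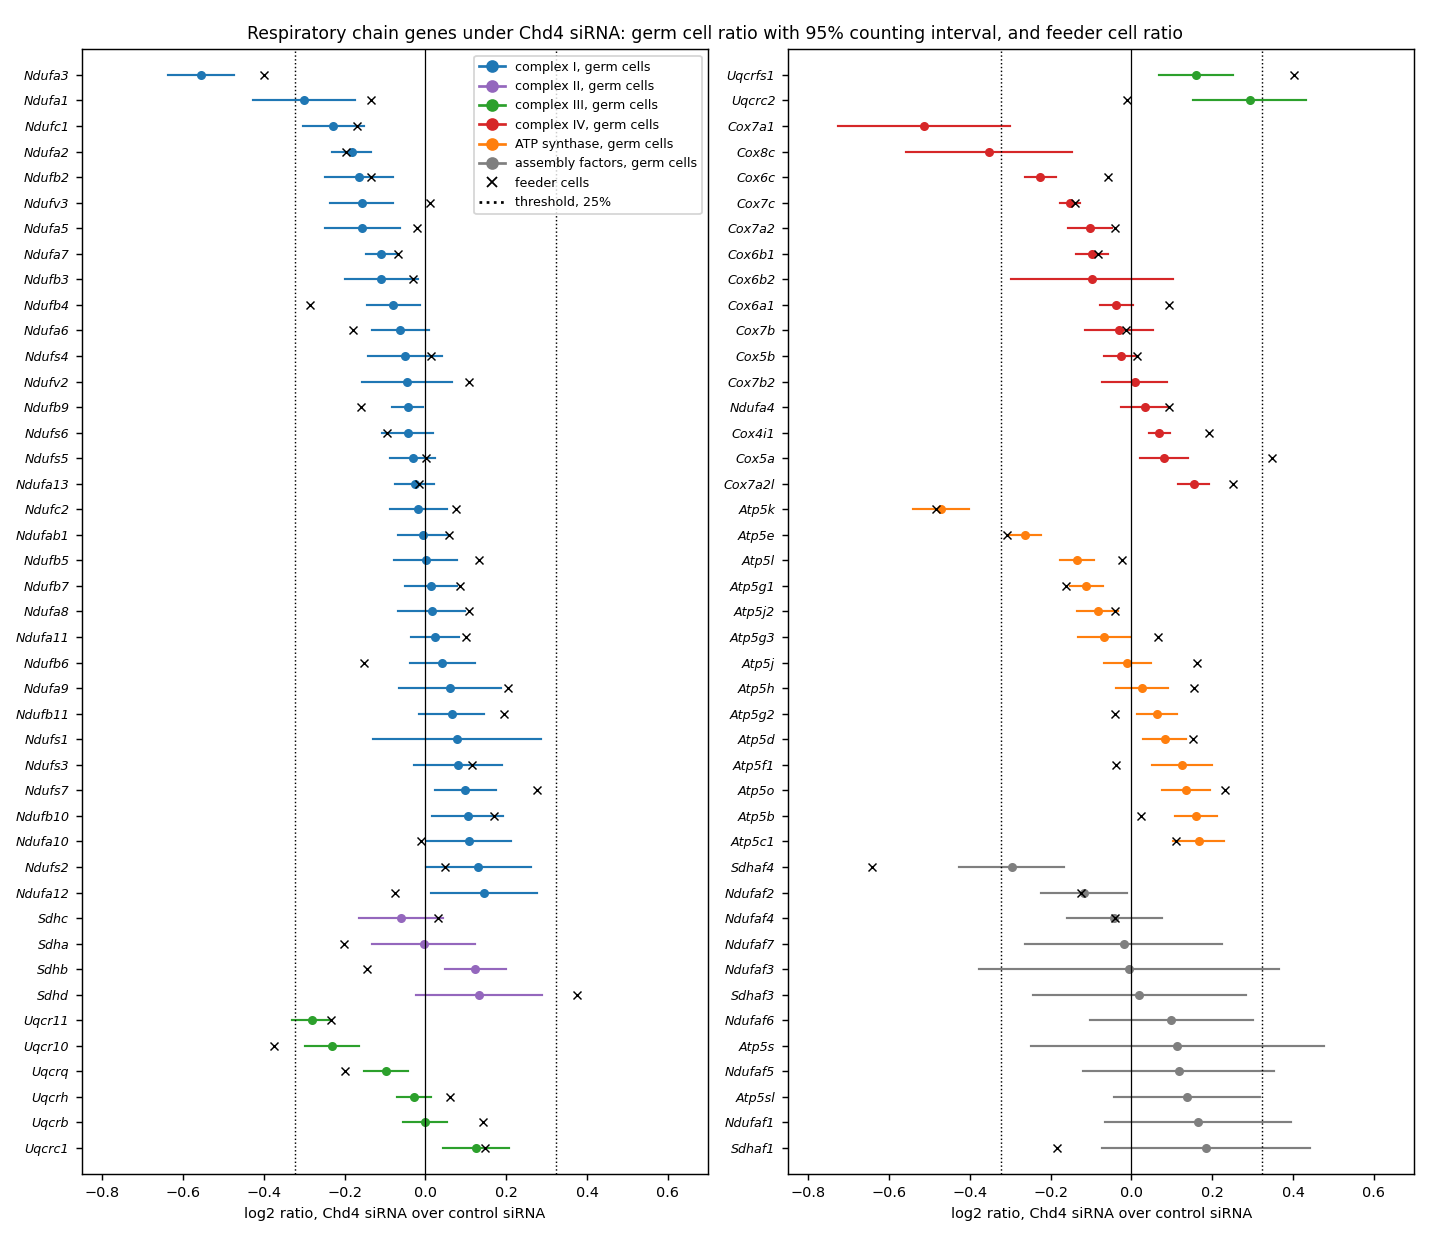
Log2 ratio of Chd4 siRNA over control siRNA (x axis) for the 86 genes tested in germ cells, as points with exact 95% counting intervals, coloured and ordered by complex. Crosses give the feeder cell ratio of the 73 genes tested there, and dotted lines mark the threshold of 0.32 on either side. Ndufa3, Cox7a1, Atp5k and Cox8c lie beyond the left dotted line and no germ cell point lies beyond the right one.

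The same comparison was made in feeder cells. The summed log2 ratio was -0.04, and 73 members could be tested. Higher past the same threshold were 3 (4.11%), where 9.64% of all 4210 genes were, and 4 (5.48%) were lower, where 11.8% of all genes were. The median was -0.01 for members and 0.01 for all genes. The higher genes were Uqcrfs1 at 120.3 and 159 CPM (0.40, 0.21 to 0.59), Sdhd at 51.5 and 66.8 CPM (0.38, 0.08 to 0.67) and Cox5a, a complex IV subunit on the matrix side, at 566 and 720.4 CPM (0.35, 0.26 to 0.43). In feeder cells thinned to 9000 UMIs the ratio of Uqcrfs1 was -0.02.

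The lower genes in feeder cells were Sdhaf4, Atp5k, Ndufa3 and Uqcr10. Sdhaf4, which guards the flavoprotein of complex II during assembly, stood at 75.2 and 48.2 CPM (-0.64, -0.93 to -0.35). Atp5k stood at 816 and 583 CPM (-0.48, -0.57 to -0.40), Ndufa3 at 382 and 290 CPM (-0.40, -0.52 to -0.28) and Uqcr10 at 902 and 696 CPM (-0.37, -0.45 to -0.30). Of the 73 members tested in both classes, 2, Ndufa3 and Atp5k, stood lower in both, and 0 passed in opposite directions. The same counts were not taken over all genes, so they are not read as agreement between the classes. Over the 73 genes tested in both, the germ and feeder log2 ratios correlated with r = 0.69, and over all 3791 such genes with r = 0.40. The classes of 1 library share its preparation and sequencing, so these are descriptions.

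Transcript length went with the ratios. All 4 genes that stood lower in germ cells have a median annotated transcript length under 500 bases. It is 321.5 bases for Atp5k, 433 for Ndufa3, 439 for Cox7a1 and 458 for Cox8c. The same held for short genes at large. Over the 25 genes of all kinds under 400 bases the germ cell median was -0.60 and 80% were lower past the threshold. Over the 75 of 400 to 500 bases it was -0.15 and 28.0%, and over the 1117 of 1500 to 2000 bases it was 0.07 and 3.40%. The 11 members of 400 to 500 bases had a median of -0.26, and the 9 members of 1500 to 2000 bases one of 0.13. Ndufa6, named after its value was seen, is a counterexample by this median, at 382 bases with a ratio of -0.06 (-0.13 to 0.01). Ndufa3 and Ndufa6 each also have an annotated transcript of at least 500 bases, and which transcript the cells made was not tested.

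Over the 86 members the rank correlation of length with the germ cell ratio was 0.56, and over 8216 genes it was 0.02, where short genes are few. It was 0.30 over the 73 members in feeder cells, where genes of 400 to 500 bases had a median of -0.23. In classes of length the members stood near the other genes: under 700 bases the medians were -0.10 for 37 members and -0.08 for 326 genes, from 700 to 1500 bases 0.07 for 30 and 0.05 for 1532, and above that 0.08 for 19 and 0.06 for 6358. Under 700 bases 4 of 37 members (10.8%) and 19.9% of all genes were lower. The part of transcript length in the ratios of single members was not tested.

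**Figure D4:**
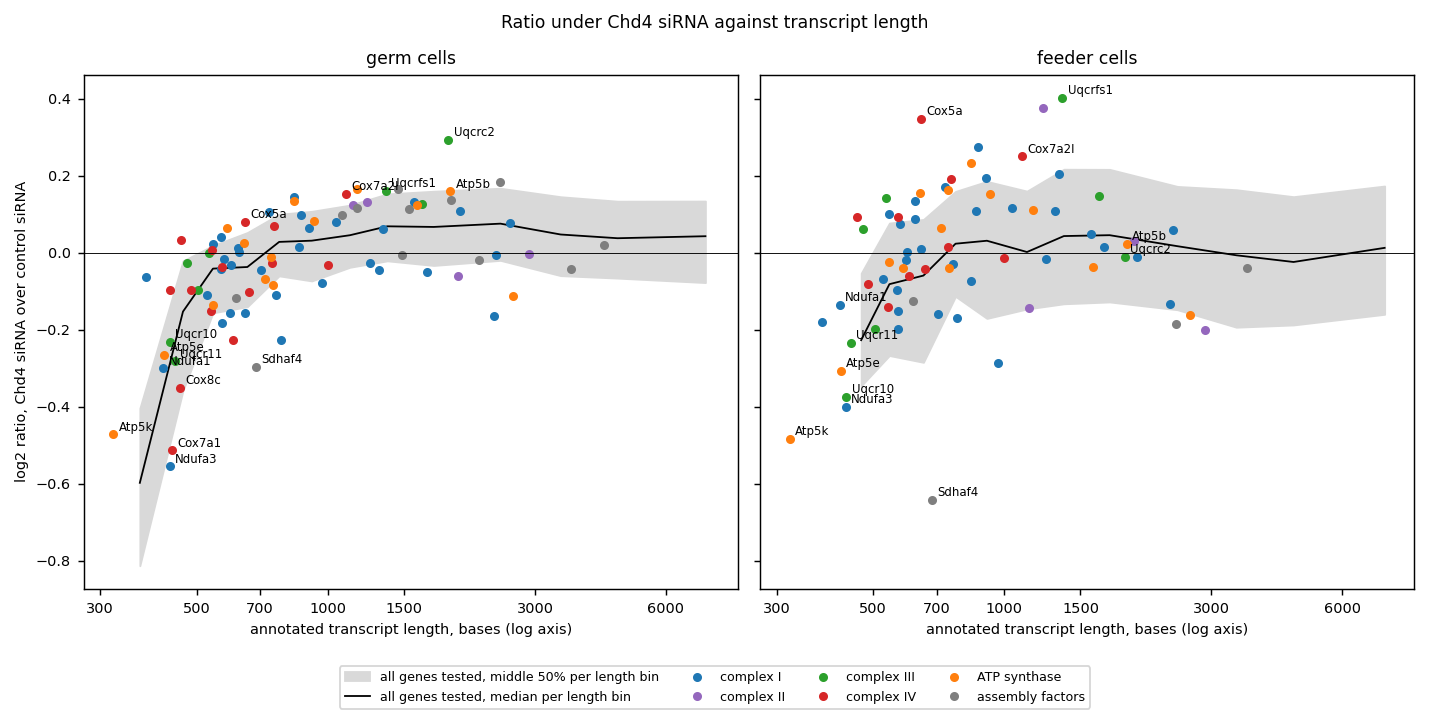
Log2 ratio of Chd4 siRNA over control siRNA (y axis) against annotated transcript length (x axis, log scale) in germ cells on the left and feeder cells on the right. Coloured points are respiratory chain genes, the black line is the median of all genes tested in bins of at least 20 genes, and the grey band holds the middle 50% of each bin. The line falls at the short end in both classes, to -0.60 in germ cells under 400 bases.

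The respiratory share was also taken cell by cell. The 90 genes gave a median of 3.05% of a germ cell's UMIs under control siRNA, with 2.71% and 3.36% as quartiles and 1.62% and 4.56% as extremes. Under Chd4 siRNA the median was 2.95%, the quartiles were 2.60% and 3.30%, and the extremes 1.52% and 5.23%. Feeder cells had medians of 2.97% and 2.89%. In thinned cells the summed count had a variance 7.07 and 7.63 times its mean in germ cells and 13.7 and 11.3 times in feeder cells, where counting alone gives 1. Across thinned germ cells the summed counts of complexes I, III, IV and ATP synthase correlated pairwise. The r ran from 0.46 to 0.54 under control siRNA (660 cells) and from 0.48 to 0.61 under Chd4 siRNA (691 cells). In thinned feeder cells it ran from 0.45 to 0.72 (74 cells) and from 0.38 to 0.66 (84 cells). No other gene set was compared, so these values are not read as particular to the chain. Cells of 1 library share its preparation, so this is a description.

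**Figure D5:**
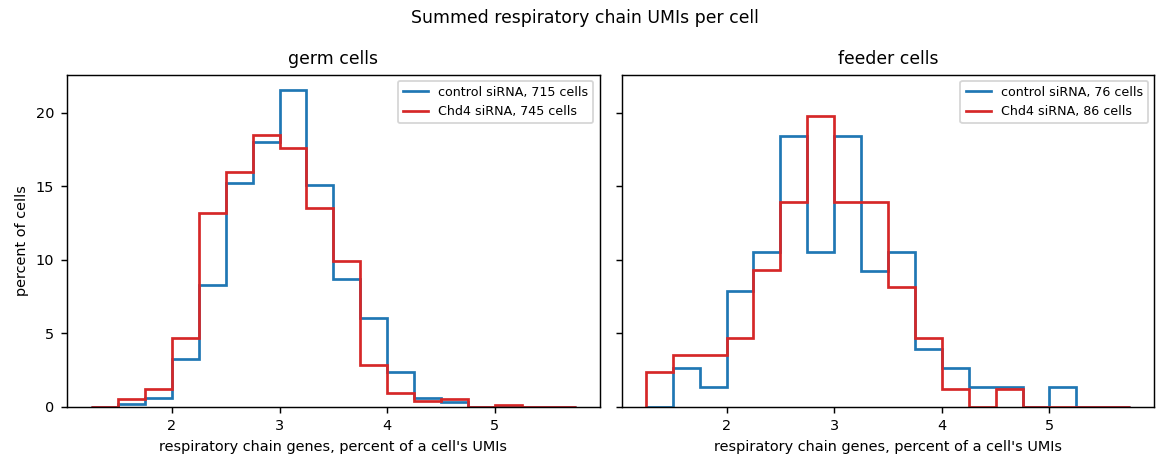
Share of a cell's UMIs that came from the 90 respiratory chain genes (x axis, percent) as the percent of cells in bins of 0.25 (y axis), for germ cells on the left and feeder cells on the right, with control siRNA in blue and Chd4 siRNA in red. The distributions of both libraries overlap over nearly their whole width, with medians of 3.05% and 2.95% in germ cells.

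Promoters of the members were searched for sites known from respiratory genes. A RefSeq window (GRCm38.p6) of 250 bases before to 50 after the start was held for 72 of the 90 genes, 77 windows in all. The palindromic NRF1 site, the 10 bases in capitals in the lines that follow, occurred in 9.09% of member windows, in 0.971% of all 32851 windows and in 2.61% of windows of genes with at least 200 germ cell UMIs. The shorter NRF1 core TGCGCATG, on either strand and in part within the same sites, occurred in 10.4% against 2.12% and 4.88%. The YY1 site AAGATGGCG, on either strand, occurred in 9.09% against 1.4% and 3.73%. The ETS site CCGGAAG, which GABPA can bind, occurred on either strand in 22.1% against 8.86% and 20.8%, close to other expressed genes. Member windows had a median G and C content of 58.7% and all windows 52.7%, and the part of base composition in these shares was not tested. The NRF1 sites of 4 members are shown 5′ to 3′ on the gene's strand, with the motif in capitals, because Atp5k, one of the lower genes, carries the same 10 bases as genes that did not pass the threshold:
Atp5k: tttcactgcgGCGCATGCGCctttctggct
Cox6a1: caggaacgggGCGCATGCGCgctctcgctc
Uqcrc1: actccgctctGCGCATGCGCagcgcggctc
Atp5g2: ggctccggccGCGCATGCGCagagccttcc

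These lie at chr5:108434430-108434459 (minus), chr5:115349101-115349130 (minus), chr9:108936668-108936697 (plus) and chr15:102671070-102671099 (minus). The germ cell log2 ratios of these genes were -0.47 for Atp5k, -0.04 for Cox6a1, 0.13 for Uqcrc1 and 0.06 for Atp5g2. The median was 0.02 over the 7 members with the site and -0.02 over the 64 without. With 7 members this is a description, and the part of the motif in the ratios was not tested. Other members with it were Ndufaf4, Ndufaf5 and Ndufa11. None of the 4 motifs was in the windows of Cox7b2, Cox6b2, Cox7a1, Cox7b or Cox7a2, and no window was held for Cox8c. Each motif was missing from most member windows, the commonest being in 22.1%, so its absence is not particular to these genes.

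Other genes of the pathway came from fixed lists outside the rule, and their counts in germ cells stand beside the 4.58% of all genes that were higher and the 3.92% that were lower. Of 33 tested assembly factors 0 were higher and 3 (9.09%) lower, with a median log2 ratio of 0.05. Ttc19, an assembly factor of complex III, differed most, at 59.5 and 30.5 CPM (-0.96, -1.15 to -0.78), and in feeder cells at 36.1 and 21.7 CPM (-0.74, -1.17 to -0.31). Its annotated transcripts have a median of 2801.5 bases, and the part of length in its ratio was not tested. Pet100, which acts in complex IV assembly, stood at 46.3 and 30.6 CPM (-0.60), and Cox17, a copper chaperone for complex IV named after its value was seen, at 146 and 110 CPM (-0.40). At the other end were Coa7 at 0.28 and Uqcc1 at 0.25.

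Among 13 subunits and carriers 2 (15.4%) were lower, 2010107E04Rik, a small proteolipid of ATP synthase, at 954 and 730 CPM (-0.39) and Coq2, of ubiquinone synthesis, at 54.5 and 42.8 CPM (-0.35). Etfa (0.29) and Cyc1 (0.12) were the highest of them, and Cycs (-0.07) and Cyct (-0.03) were near 0. Of 16 import genes 2 (12.5%) were lower, the small TOM subunits Tomm7 at 766 and 562 CPM (-0.45) and Tomm6 at 106 and 83.5 CPM (-0.34), while Tomm20 (0.15) and Tomm40 (0.13) were the highest. Of 9 regulators of mitochondrial biogenesis 1 (11.1%) was lower, Yy1 at 28.6 and 22.8 CPM (-0.33), and Gabpb1 (0.30) and Nrf1 (0.19) were the highest. None of 13 genes of the TCA cycle (Sucla2 -0.14 to Fh1 0.22) and none of 7 exchange genes (Vdac1 -0.17 to Vdac2 0.25) passed in either direction, with medians of 0.10 and 0.07.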

How the data were processed

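Per the labels' protocols, 1 library per siRNA was made with 10x v2 chemistry. The deposited values are whole UMI counts for each gene in each cell, with no normalization. The submitters' processing notes list Cell Ranger 2.1.0, Seurat and mm10, without saying what each was used for. Of 27998 matrix rows, 26893 carry a gene name here, and the remaining 1105, with 12.1% and 12.6% of UMIs, stayed out of totals. The last, incomplete cell of each matrix and cells under 1000 UMIs were left out, which gave 816 and 858 cells with 14826257 and 15919962 UMIs. The libraries share 1 cell barcode.

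A germ cell needed at least 3 UMIs of Dazl and Ddx4 and 3-fold more of them than of Col1a1 and Fn1, and a feeder cell the reverse; 25 and 27 cells met neither. Scrublet called 18 and 5 germ cells doublets, which were kept. UMIs were summed per class. Ratios have exact conditional binomial intervals, CPM exact Poisson intervals and shares Clopper-Pearson intervals, which cover counting error only. With 1 library per group no test was run and no p-value computed. The code was tested on simulated data.

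Named genes were the 8 highest and 8 lowest members by germ cell ratio (at least 200 UMIs) and by germ over feeder ratio, the 2 most abundant per complex, the isoform groups, the 2 highest and 2 lowest per pathway list, and 5 carriers; others are named to complete small counts. Members and lists were chosen with earlier results of these data known. Lengths are medians over coding transcripts of GENCODE M21, the same assembly as mm10. Alternatives were TMM (edgeR 4.0.16) and DESeq2 1.42.0 factors, used for scaling only, and other cell, gene and fold settings. Python 3.11.15, R 4.3.3, scanpy 1.11.5 and scipy 1.17.1 were used.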

Additional observations from a re-analysis of the deposited data

How the results depend on the processing

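No paired analysis was possible because each group was 1 library of pooled replicates. For the same reason no replicate could be left out. Percentages in parentheses are the shares of all genes under the same setting. In germ cells the 4 lower members became 7 of 86 with TMM scaling (5.22%), 9 of 82 with classes from broad marker lists (4.54%), 2 of 74 at a minimum of 1000 UMIs (3.29%), 8 of 86 at 1.2-fold (5.63%) and 0 at 1.5-fold (0.997%). The 0 higher members became 1 at 1.2-fold (8.15%) and 1 with a minimum of 1 UMI in each library (16.3%). In feeder cells the 4 lower members became 8 of 80 at a minimum of 50 UMIs (18.6%), 13 of 86 at 1 UMI in each library (25.7%) and 1 at 1.5-fold (3.14%). The 3 higher members became 5 at 1 UMI in each library (18.3%), 1 at 1000 UMIs (7.44%) and 0 at 1.5-fold (1.57%). Between classes, the 16 germ-higher members became 10 with TMM (26.2%), 9 with DESeq2 factors (25.2%) and 8 of 73 with 200 UMIs in each class (15.4%). The median log2 ratio of 0.23 became 0.027 and -0.025 with those factors, and the 6 feeder-higher members became 12 at 1.5-fold (23.3%), where 24 were higher in germ cells (41.2%). The feeder ratio of Uqcrfs1 changed sign in thinned cells, to -0.019. The cause of these moves was not tested. Of the alternative values of single siRNA ratios, 645 moved by less than their counting interval, 47 moved further and 1 changed sign. Of the germ to feeder ratios 564 moved by less and 189 further, 66 of them with DESeq2 and 59 with TMM factors. Of the summed levels 33 moved by less and 51 further, and all 12 isoform shares moved less. In feeder cells 17 members fell under 200 UMIs.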
